A study of Mus musculus with 6 samples.

Results

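Meningeal fibroblasts build the collagen-rich sheets around the brain and its large vessels, and the 10 genes examined here are commonly used to mark them or the barrier layer of the arachnoid: *Ogn*, *Dcn*, *Lum*, *Fmod*, *Mgp*, *Slc13a4*, *Slc6a13*, *Slc22a6*, *Aldh1a2* and *Ptgds*. They were matched by symbol to the array annotation, and all 10 were found among 19505 genes with a symbol, each with 1 transcript cluster (the set of probes that measures a gene). None of them passed the test between hippocampi of pups given WT milk and pups given KO milk. Most varied more between arrays of a group than most genes in their range of mean intensity did. They did so in opposite directions, so that no shared rise or fall of the set was seen.

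The 6 arrays (Clariom S for mouse, 1 colour) measured total RNA from the hippocampus on postnatal day 10. All pups carried the *LAO1* KO on a C57BL/6Jcl background, so there was no pup with its own LAO1, and the groups differed in the genotype of the nursing dam: 3 pups, called *LAO1* KO with WT milk, had WT foster dams, and 3 pups, called *LAO1* KO with KO milk, had dams that lacked LAO1. LAO1 is an amino acid oxidase of milk that releases hydrogen peroxide. The comparison asks what the dam's milk changes in the pups' hippocampus. Litters are not given for the arrays, so the p-values measure the spread between these arrays only. Values are log2 intensities.

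The sheets of the meninges lie directly on the hippocampus and follow its fissure and vessels inwards. Their fibroblasts secrete collagens and small leucine-rich proteoglycans, which bind collagen fibrils and set their spacing, they make retinoic acid for the developing cortex, and their outermost layers carry transporters that move solutes between blood and cerebrospinal fluid. A dissected hippocampus may hold more or less of this tissue, and of the choroid plexus beside it. In bulk RNA fewer cells of a type and less RNA per cell cannot be told apart.

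Array medians lay between 6.89 and 6.92. KO milk replicate 3 stood apart: its root mean square distance to the other arrays was 0.479 to 0.537 on the log2 scale, against 0.321 to 0.407 among the other 5. All pups were labelled male, yet *Uty*, *Kdm5d* and *Eif2s3y* of the Y chromosome lay between 2.58 and 4.12 in WT milk replicate 2 and KO milk replicates 1 and 3, and between 8.58 and 11.57 in the other 3 arrays. The methods state that neonates of either sex were used. The excitatory neuron gene *Slc17a7* was at 17.44 to 17.84 on every array. Of other neuron markers, *Camk2a* (18.62 to 18.93) and *Gria1* (17.08 to 17.26) were about as even. *Neurod6* (14.06 to 15.30, lowest in KO milk replicate 3) and *Wfs1* (10.83 to 12.09) ranged more widely.

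Promoters from RefSeq (GRCm38.p6) were found for 7 of the 10 genes. Those of *Ogn*, *Slc13a4*, *Slc6a13* and *Ptgds* are shown because the first pair of genes peaked in the array in which the second pair was lowest. Each line holds the 150 bases before the annotated start, 5′ to 3′ on the gene's own strand, with capitals for a match to 1 of 6 short motifs on either strand. *Ogn* is read from chr13:49607865-49608014 on the plus strand, *Slc13a4* from chr6:35308127-35308276 on the minus strand, *Slc6a13* from chr6:121300138-121300287 on the plus strand (the first of 3 listed starts) and *Ptgds* from chr2:25469750-25469899 on the minus strand.
Ogn: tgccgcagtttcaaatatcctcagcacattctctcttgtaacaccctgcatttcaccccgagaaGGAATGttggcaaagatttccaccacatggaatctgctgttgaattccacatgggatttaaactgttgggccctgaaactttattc
Slc13a4: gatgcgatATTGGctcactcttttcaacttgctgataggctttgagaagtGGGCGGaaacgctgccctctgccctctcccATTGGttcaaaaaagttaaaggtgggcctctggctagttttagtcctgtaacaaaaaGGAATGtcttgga
Slc6a13: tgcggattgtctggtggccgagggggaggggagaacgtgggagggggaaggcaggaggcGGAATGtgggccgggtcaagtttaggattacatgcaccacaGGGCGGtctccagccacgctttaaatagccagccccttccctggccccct
Ptgds: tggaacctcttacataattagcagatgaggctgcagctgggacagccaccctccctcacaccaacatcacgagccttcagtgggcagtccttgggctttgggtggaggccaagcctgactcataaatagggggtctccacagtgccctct
The motifs were TATAAA for the TATA-binding protein, CCAAT for nuclear factor Y, GGGCGG for factors of the Sp family, GTAAACA for forkhead factors, AGGTCA for nuclear receptors and GGAATG for TEAD factors, searched on both strands with overlaps allowed. GGAATG was present in 4 of the 7 promoters (*Ogn*, *Slc13a4*, *Slc6a13* and *Slc22a6*) and in 7.59% of 32851 promoter windows of the same length. It was picked with these promoters in view, so its count is a description. CCAAT was found in *Slc13a4*, *Slc22a6* and *Aldh1a2* and in 24.5% of all windows, and GGGCGG in *Slc13a4* and *Slc6a13* and in 28.6%. No match to the TATA, forkhead or nuclear receptor motif lay in the 7 windows, against 7.57%, 1.8% and 8.58% of all windows. The *Ptgds* window held none of the 6 motifs. *Slc6a13* and *Ptgds*, at 63.3% and 56.0% GC, were above the median of 54.0% over all windows, while *Ogn* and *Slc13a4*, at 44.0% and 46.7%, were below it.

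Across all 22206 clusters, limma called 0 after Benjamini-Hochberg adjustment at 0.05 (0%). An unmoderated test per cluster called 0 as well, and 726 clusters (3.27%) had an unadjusted limma p under 0.05. In 1873 clusters (8.43%) the values of the groups did not overlap. Among the 10 genes, 0 had an unadjusted p under 0.05 and 0 had groups that did not overlap. The log2 fold change of KO milk over WT milk was below 0 for 6 and above 0 for 4, with a median of -0.12 beside 0.00 over all genes. Exact two-sided permutation tests over the arrays gave p between 0.3 (*Aldh1a2*) and 1, where 0.1 is the smallest p that 3 against 3 arrays allow.

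**Figure D1:**
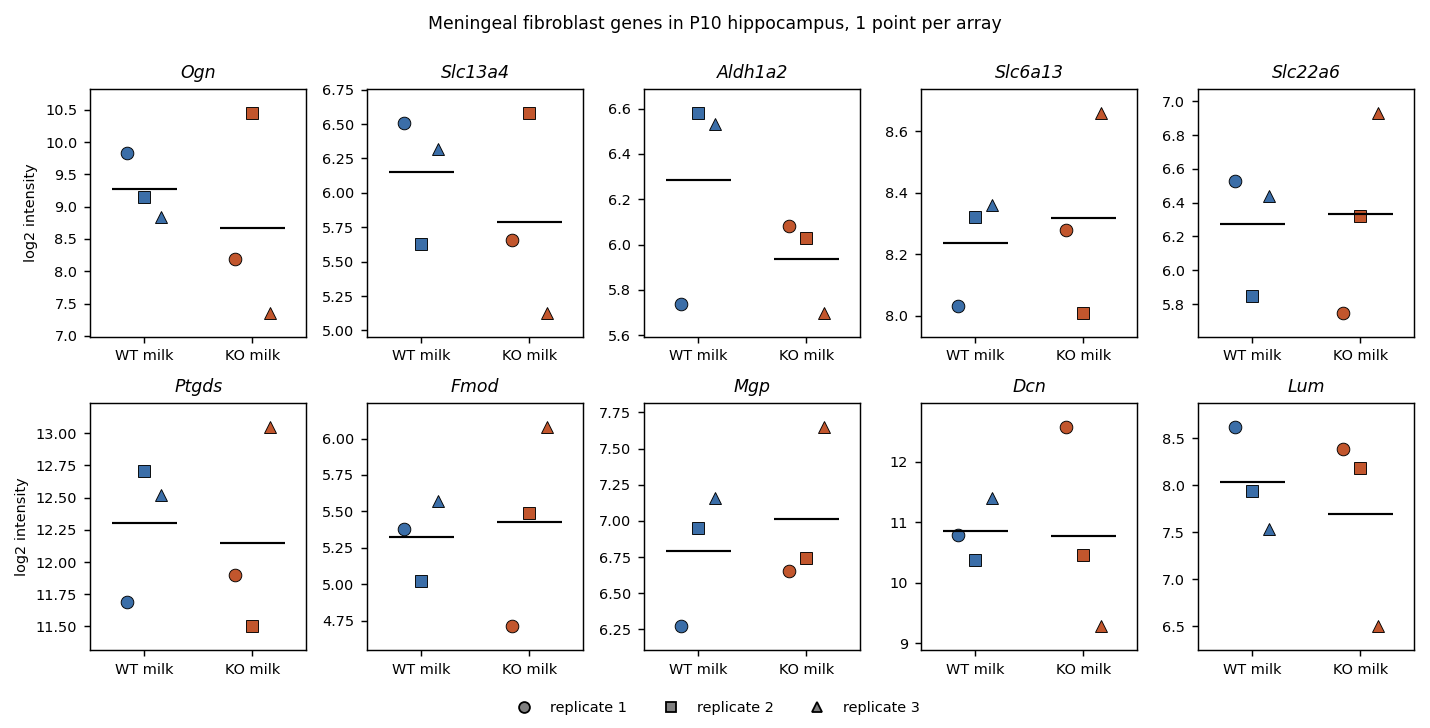
Log2 intensity of each of the 10 genes (y axis, scaled per gene) in the WT milk and KO milk groups, 1 point per array with the marker shape giving the replicate and the line giving the group mean (n = 3). The groups overlap in every panel, and KO milk replicate 3 (triangle) is the highest or the lowest array in each.

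*Dcn*, *Ogn* and *Lum*, all genes for proteoglycans, had the widest ranges of the set. *Ogn* encodes osteoglycin, a small leucine-rich proteoglycan of connective tissue and a leading marker of pial and arachnoid fibroblasts. It read 9.83, 9.15 and 8.84 in WT milk replicates 1, 2 and 3 and 8.19, 10.45 and 7.36 in KO milk replicates 1, 2 and 3. The KO milk group held both the brightest and the dimmest array, which were 8.51-fold apart, and the WT milk arrays lay between them. The means were 9.28 ± 0.51 (SD, n = 3) and 8.67 ± 1.60 (SD, n = 3), a log2 fold change of -0.61 (SE 0.61, 95% interval -1.96 to 0.74).

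*Dcn* encodes decorin, which binds collagen fibrils and transforming growth factor beta. Its values were 10.79, 10.38 and 11.41 in the WT milk arrays against 12.58, 10.46 and 9.28 in the KO milk arrays. Again the KO milk arrays spanned the whole range, 9.87-fold, but replicate 1 was now the brightest. The log2 fold change was -0.09 (SE 0.64, 95% interval -1.50 to 1.32), an interval too wide to settle whether decorin differed.

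*Lum*, for lumican, lies next to *Dcn* on chromosome 10 and encodes a related proteoglycan that regulates fibril thickness. It was at 8.62, 7.94 and 7.53 in the WT milk arrays against 8.39, 8.18 and 6.50 in the KO milk arrays. Replicate 3 of KO milk was 1 log2 unit or more below every other array, and the rest of the KO milk group lay within the WT milk range. KO milk over WT milk gave a log2 fold change of -0.34 (SE 0.44, 95% interval -1.32 to 0.64).

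*Fmod*, for fibromodulin, encodes a proteoglycan of the same family. It read 5.38, 5.02 and 5.57 in the WT milk arrays against 4.71, 5.49 and 6.08 in the KO milk arrays. Here KO milk replicate 3, the dimmest array of *Ogn*, *Dcn* and *Lum*, was the brightest, and replicate 1 was the dimmest. *Mgp* encodes matrix Gla protein, an inhibitor of calcification in vessel walls and cartilage. It read 6.27, 6.95 and 7.16 in the WT milk arrays against 6.65, 6.74 and 7.65 in the KO milk arrays, so KO milk replicate 3 was the brightest there too. The log2 fold changes were 0.10 (SE 0.31, 95% interval -0.58 to 0.78) for *Fmod* and 0.22 (SE 0.30, 95% interval -0.45 to 0.88) for *Mgp*.

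Of the transporters, *Slc13a4* carries sulfate with sodium and is found in meninges and choroid plexus. It read 6.51, 5.63 and 6.32 in the WT milk arrays against 5.66, 6.58 and 5.13 in the KO milk arrays. As for *Ogn*, KO milk replicate 2 was the brightest array and replicate 3 the dimmest. The log2 fold change was -0.36 (SE 0.35, 95% interval -1.12 to 0.40). *Slc6a13*, a transporter of GABA and taurine, was the steadiest gene of the set, at 8.03, 8.32 and 8.36 in the WT milk arrays against 8.28, 8.01 and 8.66 in the KO milk arrays. Its arrays spanned 1.57-fold, with the order of KO milk replicates 2 and 3 opposite to that of *Ogn*. KO milk over WT milk gave a log2 fold change of 0.08 (SE 0.21, 95% interval -0.38 to 0.54), which bounds any difference more closely than for the other 9 genes.

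*Slc22a6* encodes an organic anion transporter best known from the kidney tubule. It read 6.53, 5.85 and 6.44 in the WT milk arrays against 5.75, 6.32 and 6.93 in the KO milk arrays, with a log2 fold change of 0.06 (SE 0.29, 95% interval -0.59 to 0.71). A predicted gene overlaps it in RefSeq, and its neighbour *Slc22a8* encodes a related transporter.

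The remaining pair are enzymes. *Aldh1a2* makes retinoic acid from retinaldehyde, and the meninges are its main site in the developing forebrain. It read 5.74, 6.58 and 6.53 in the WT milk arrays against 6.08, 6.03 and 5.70 in the KO milk arrays. WT milk replicates 2 and 3 were above every KO milk array, but WT milk replicate 1 was almost as low as the dimmest of them. The log2 fold change was -0.34 (SE 0.24, 95% interval -0.88 to 0.19), with the smallest limma p of the set. Without WT milk replicate 1 it was -0.62, past an unadjusted limma p of 0.05.

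*Ptgds* encodes the lipocalin-type prostaglandin D synthase, which is abundant in meninges, choroid plexus and oligodendrocytes. It read 11.69, 12.71 and 12.52 in the WT milk arrays against 11.90, 11.50 and 13.05 in the KO milk arrays. The brightest and the dimmest array both belonged to KO milk. KO milk over WT milk gave a log2 fold change of -0.16 (SE 0.38, 95% interval -0.99 to 0.67). Of 11 measured myelin genes, 9 were lower with KO milk at an unadjusted limma p under 0.05 (3.27% of all clusters) and 0 higher, with a median of -0.93. *Mbp*, a main protein of the myelin sheath, had a log2 fold change of -0.80. KO milk replicate 3, where *Ptgds* peaked, had a summed myelin level of 16.01, and the WT milk arrays had 16.77 to 16.90. Most of that sum was *Mbp*. The part of myelinating cells in the *Ptgds* values was not tested.

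**Figure D2:**
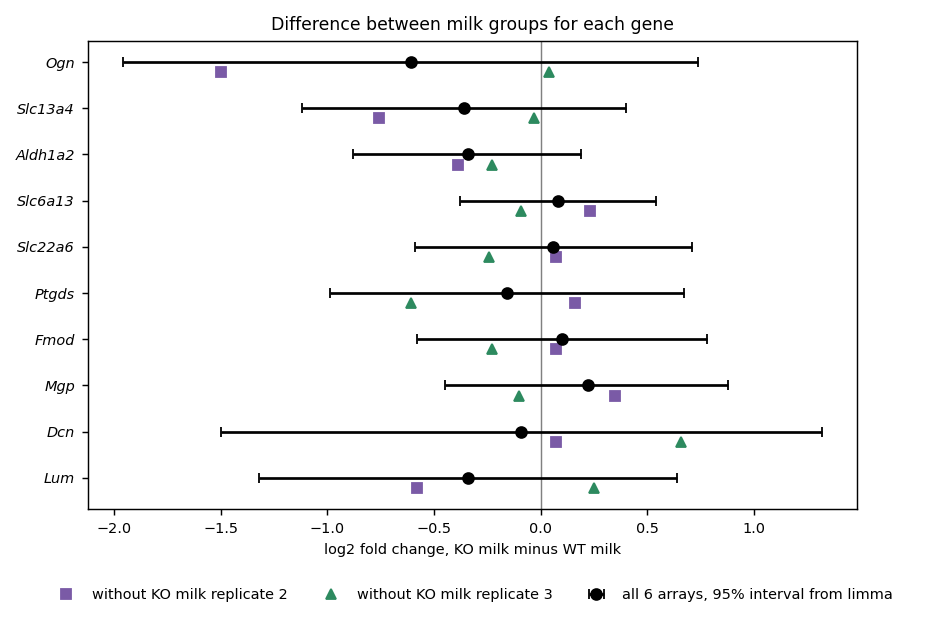
Log2 fold change of KO milk over WT milk (x axis), of each gene (y axis). Black points with bars are the limma values and 95% intervals from all 6 arrays, which all include 0, squares leave out KO milk replicate 2 and triangles leave out KO milk replicate 3. *Ogn* moves from -1.50 to 0.04 between these settings and *Dcn* from 0.07 to 0.66.

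Single arrays decided several of these values. Leaving out KO milk replicate 2 gave -1.50 for *Ogn* and -0.76 for *Slc13a4*, both past an unadjusted limma p of 0.05, while leaving out replicate 3 gave 0.04 and -0.03. Leaving out KO milk replicate 1 gave -0.99 for *Dcn*, past the same threshold, and leaving out replicate 3 gave 0.66. None of the 10 genes passed it in the full set of arrays, where each had an adjusted limma p of 0.9996. KO milk replicate 3 was the highest array for *Slc6a13*, *Slc22a6*, *Ptgds*, *Fmod* and *Mgp* and the lowest for *Ogn*, *Slc13a4*, *Aldh1a2*, *Dcn* and *Lum*. Over all 19505 genes it was the highest or lowest array for 49.7%, and each of the other arrays for 27.3% to 37.2%.

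The spread within groups set most of the genes apart from others between the lowest and the highest mean intensity of the set. Bright and dim genes of the set were ranked against the same pool. KO milk replicate 3, which stood apart from the other arrays, is included in every SD. Differences between pups, dissections and arrays cannot be told apart in this spread. Pooled over both groups, the SD was 1.24 for *Dcn* and 1.19 for *Ogn*, each larger than that of 99.9% of 11237 genes in the same range of mean intensity, whose median was 0.25. The SD of *Lum* was 0.83, of *Ptgds* 0.68 and of *Slc13a4* 0.61, larger than in 99.7%, 99.0% and 98.2% of those genes. *Fmod*, *Mgp* and *Slc22a6* followed at 0.52, 0.51 and 0.49, larger than in 95.9%, 95.3% and 94.4%. *Aldh1a2* at 0.36 exceeded 81.1%. *Slc6a13* at 0.26 exceeded 55.0% and was thus an ordinary gene in this respect.

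The 10 genes did not vary as a block. Over the 45 pairs, Pearson's r across the 6 arrays was above 0.5 in 9 and below -0.5 in 15, with a median of 0.03. Together with 9 pairs of a gene and its neighbour, 54 relations were computed, and 0 had an adjusted permutation p under 0.05. The strongest was between *Mgp* and *Lum*, which ran in exactly reverse order: r was -0.98 (exact permutation p = 0.00139, adjusted p = 0.075) and Spearman's rho -1.0 (exact permutation p = 0.00278, adjusted p = 0.15). It stayed at -0.97 without KO milk replicate 3 and at -0.99 without the 2 arrays farthest from the median of *Mgp*.

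*Slc22a6* and *Fmod* rose and fell together, with r of 0.96 (exact permutation p = 0.00556, adjusted p = 0.1), rho of 0.83 and r of 0.92 without KO milk replicate 3. For *Slc6a13* and *Ptgds* r was 0.92 (exact permutation p = 0.00417, adjusted p = 0.1), rho 0.94, and r 0.87 without that array. *Ogn* went with *Slc13a4* (r = 0.88, rho = 0.83, exact permutation p = 0.0208, adjusted p = 0.128) and against *Slc6a13* (r = -0.92, rho = -0.83, exact permutation p = 0.0194, adjusted p = 0.128). Without the 2 arrays farthest from the median of the first gene, r was 0.87 for *Slc22a6* and *Fmod*, 0.8 for *Slc6a13* and *Ptgds*, 0.64 for *Ogn* and *Slc13a4* and -0.7 for *Ogn* and *Slc6a13*.

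**Figure D3:**
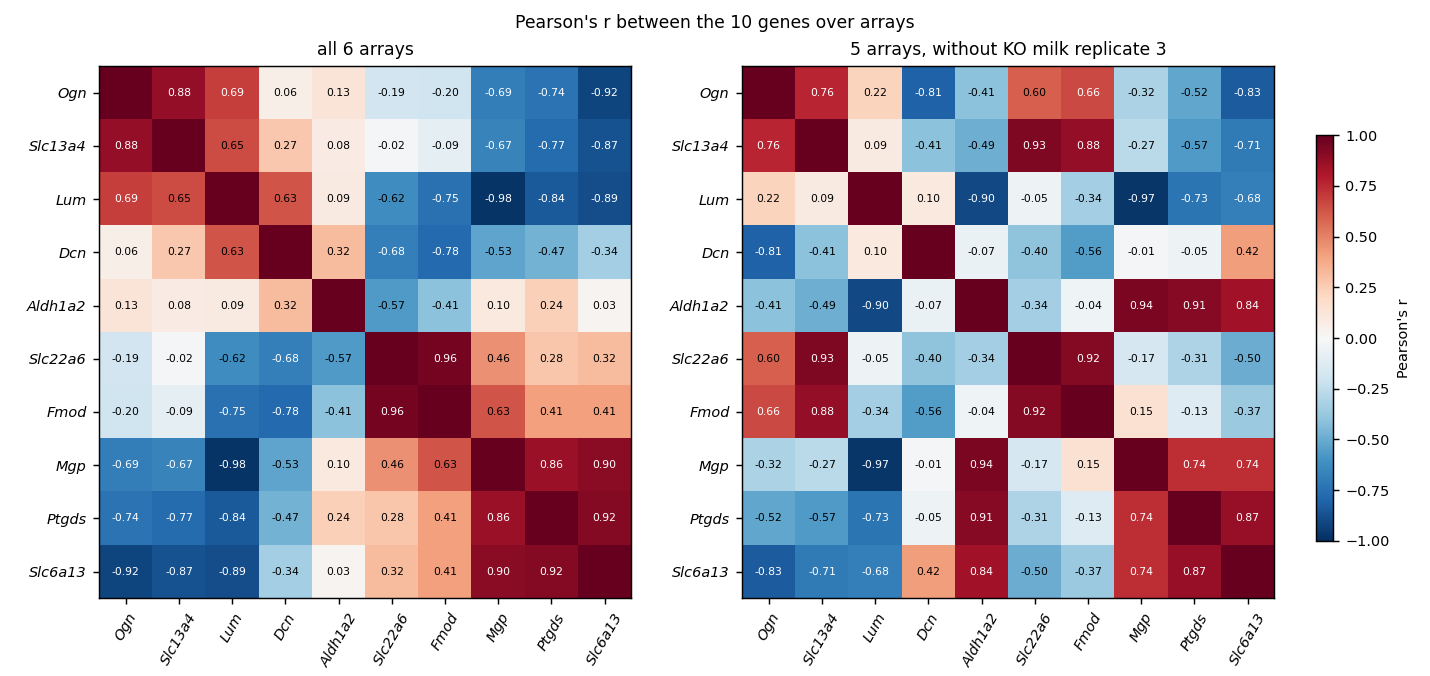
Pearson's r between each pair of the 10 genes (both axes) over all 6 arrays (left) and over 5 arrays without KO milk replicate 3 (right), with the value in each cell and colour from -1 to 1. *Mgp* and *Lum* are opposed in both panels (-0.98 and -0.97), whereas *Ogn* and *Dcn* turn from 0.06 to -0.81.

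Several other relations differed with and without KO milk replicate 3. Without it the sign of r was kept in 29 of the 45 pairs. For *Ogn* and *Dcn*, r went from 0.06 to -0.81, for *Aldh1a2* and *Mgp* from 0.10 to 0.94, and for *Aldh1a2* and *Lum* from 0.09 to -0.90. *Dcn* and *Lum*, adjacent on chromosome 10, had r of 0.63 with that array and 0.10 without it. *Ogn* and its neighbour *Ecm2*, a matrix protein gene of the same cluster on chromosome 13, had r of 0.92 (rho = 0.94, exact permutation p = 0.0125, adjusted p = 0.128), 0.86 without KO milk replicate 3 and 0.91 without the 2 arrays farthest from the median.

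The genes closest to the mean profile of the set over the 6 arrays, among 3656 genes with a mean log2 intensity of at least 6 and an SD of at least 0.3, were *Vma21*, *Rbbp9*, *Srrd*, *Fam13c*, *Zfp131*, *Tmem229a*, *Tmem100* and *Prkcq*, with r from 0.99 down to 0.98. Being the best matches of a wide search over 6 arrays, they have a high r by selection, which is a description only. Each was brightest in WT milk replicate 3 and dimmest in KO milk replicate 3. That mean profile averages genes that opposed each other and spanned only -0.25 in KO milk replicate 3 to 0.19 in WT milk replicate 3.

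Of 15 measured choroid plexus markers, 2 had the same order of the 6 arrays as *Ogn*: *Ttr* and *Sostdc1*. *Ttr*, which encodes transthyretin and is the leading product of choroid plexus epithelium, read 17.74, 17.68 and 17.10 in the WT milk arrays against 10.76, 18.18 and 7.69 in the KO milk arrays. In *Ogn* and *Ttr* alike KO milk replicates 3 and 1 were lowest and replicate 2 highest. KO milk replicates 1 and 3 were also the lowest arrays for *Folr1*, *Kl*, *Clic6*, *Kcnj13*, *Aqp1*, *Otx2*, *Slc4a5*, *Sostdc1*, *Cldn2*, *Kcne2* and *Calml4*. They were not for *Lmx1a*, *Tmem72* and *F5*. The peak differed between markers: *Kl* and *Clic6* peaked in WT milk replicate 1 (7.73 and 9.29), and *Lmx1a*, a transcription factor gene, in KO milk replicate 3 (6.92). Since *Ttr* split the arrays into separate clusters, no correlation with it is given. At an unadjusted limma p under 0.05 (3.27% of all clusters), 2 markers of the whole list were lower with KO milk and 0 higher. These were *Ttr* (log2 fold change -5.30) and the channel gene *Clic6* (-1.41), and the median of the markers was -0.53. Their summed level on the log2 scale ran from 17.11 to 17.77 with WT milk and from 10.26 to 18.20 with KO milk. In the WT milk arrays it was almost wholly that of *Ttr*. *Slc13a4* was likewise dimmest in KO milk replicate 3 and brightest in KO milk replicate 2, while *Ptgds* was brightest in KO milk replicate 3. The likeness was partial: in KO milk replicate 1 *Slc13a4* read 5.66, beside 5.63 in WT milk replicate 2. In KO milk replicate 1 *Dcn* was at its brightest (12.58) and *Lum* at 8.39, while *Slc22a6* and *Fmod* were at their dimmest. The part of choroid plexus RNA in these values was not tested.

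**Figure D4:**
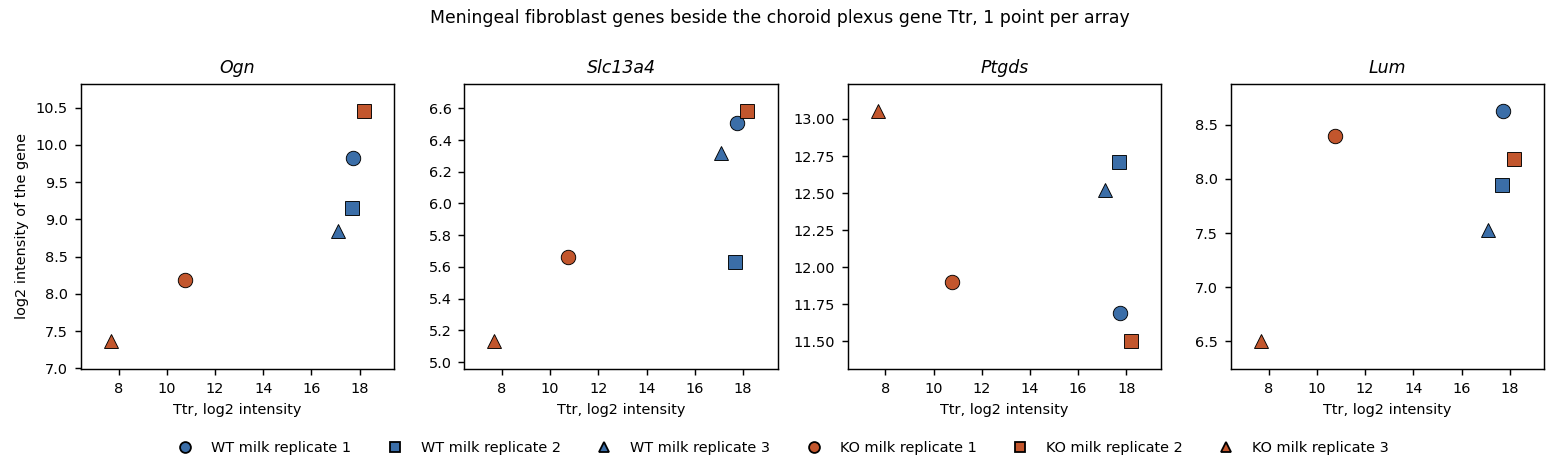
Log2 intensity of *Ogn*, *Slc13a4*, *Ptgds* and *Lum* (y axis, 1 panel each) against that of the choroid plexus gene *Ttr* (x axis), 1 point per array with colour for the milk group and shape for the replicate. KO milk replicates 1 and 3 lie at *Ttr* values of 10.76 and 7.69, far below the other 4 arrays, and *Ogn* is lowest in the same pair.

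Further genes linked to meningeal fibroblasts were examined in lists, and whether other cells of the tissue make them was not tested. Of 27 measured other meningeal fibroblast genes, such as those for collagens and the forkhead factors of the meninges, 0 passed an unadjusted limma p of 0.05 in either direction (3.27% of all clusters). The median log2 fold change was 0.00. The smallest p values were those of *Igf2* (-0.40), a growth factor gene, *Crabp2* (0.46), for a retinoic acid binding protein, and *Col15a1* (0.27), for a basement membrane collagen. The median of this list in single arrays stayed between -0.09 and 0.14 on the log2 scale relative to the WT milk mean. In KO milk replicate 3, where *Ogn*, *Dcn* and *Lum* were lowest, it was 0.14. The summed level of the same list was 14.66 there, below the 14.75 to 15.03 of the WT milk arrays. Intensities are summed before the log2, so the brightest gene weighs most. That gene was *Igf2*, at 13.56, 14.09 and 13.79 in KO milk replicates 1, 2 and 3 and at 14.02 to 14.51 in the WT milk arrays. *Igf2* was thus lowest in KO milk replicates 1 and 3, as *Ttr* was. The part of choroid plexus RNA in this sum was not tested. The summed level was 14.33 and 14.86 in KO milk replicates 1 and 2. The part of meningeal tissue in the values of the 10 genes was not tested.

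Among 12 other small leucine-rich proteoglycan genes 0 passed in either direction (3.27% of all clusters), and the median was 0.00. Their smallest p values belonged to *Nyx* (0.39), *Chad* (-0.38) and *Omd* (-0.33). *Bgn*, for biglycan, read 9.27, 9.43 and 9.56 in the WT milk arrays against 9.27, 9.37 and 10.28 in the KO milk arrays, so KO milk replicate 3 was its brightest array and the dimmest of *Dcn*, whose product is the closest relative of biglycan.

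The retinoic acid pathway around *Aldh1a2* had 17 measured genes, with a median of 0.18. At an unadjusted limma p under 0.05, 2 were higher with KO milk and 0 lower, beside 3.27% of all clusters in either direction. *Rarg*, a retinoic acid receptor gene, read 8.40, 9.0 and 8.95 in the WT milk arrays against 9.25, 9.21 and 9.34 in the KO milk arrays (log2 fold change 0.48, SE 0.20). *Crabp1*, for a cytosolic retinoic acid binding protein, read 4.57, 4.78 and 4.86 in the WT milk arrays against 4.98, 5.27 and 5.26 in the KO milk arrays (log2 fold change 0.43, SE 0.18). The groups did not overlap for either gene, as in 8.43% of all clusters, and both had an adjusted limma p of 0.9996. *Rbp4*, for the retinol carrier of blood, was at -0.55.

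Of 11 measured genes for solute carriers of brain barriers, 1 was lower and 0 were higher at an unadjusted limma p under 0.05 (3.27% of all clusters). This was *Slc7a11*, which exchanges cystine for glutamate and is well expressed in meninges, at 9.85, 9.94 and 9.88 in the WT milk arrays against 9.32, 9.46 and 8.99 in the KO milk arrays. All KO milk arrays lay below all WT milk arrays, with a log2 fold change of -0.63 (SE 0.18), and the adjusted limma p was 0.9996. The groups did not overlap in 8.43% of all clusters. *Slc6a11*, a GABA transporter gene, and *Slc13a5*, a citrate transporter gene, were at 0.30 and 0.19. Of 15 prostaglandin pathway genes around *Ptgds*, 0 passed in either direction (3.27% of all clusters) and the median was -0.02. *Hpgd*, whose product degrades prostaglandins, was at -0.47, the receptor gene *Ptger4* at 0.33 and *Hpgds*, for the haematopoietic prostaglandin D synthase, at -0.36.

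Markers of neighbouring cells were examined for the same arrays. Of 15 mural and endothelial genes 0 passed in either direction (3.27% of all clusters). Of these, 7 were below 0 and 8 above, with a median of 0.00, and their summed level lay between 14.18 and 14.54. The pericyte gene *Rgs5* read 12.09, 11.77 and 12.14 in the WT milk arrays against 11.86, 12.01 and 10.00 in the KO milk arrays, and was lowest in KO milk replicate 3. The mural genes *Pdgfrb* (9.42), *Kcnj8* (6.89) and *Myh11* (4.84) were instead highest in that array. The next array was at 9.13, 6.65 and 4.72, so these leads were small beside the drop of *Rgs5*. *Vtn* was level between it (13.22) and WT milk replicate 3 (13.21), and the mural genes *Abcc9*, *Acta2* and *Tagln* peaked in other arrays. Of the endothelial genes *Ly6c1* was at -0.49, *Slco1a4* at -0.35, *Pecam1* at -0.26 and *Cldn5* at -0.14. *Cdh5* was at 0.07, *Slc2a1* at 0.04 and *Flt1* at 0.0. *Ly6c1* (10.08), *Slco1a4* (9.14) and *Pecam1* (7.02) were lowest in KO milk replicate 3, and *Cldn5* (9.42) was highest there. *Cdh5*, *Slc2a1* and *Flt1* were neither. Of 8 ependymal genes 0 passed (3.27% of all clusters), 7 were below 0 and 1 above, and the median was -0.33. The smallest p was that of *Cfap126* (-1.0). Among 9 hippocampal neuron markers, with a median of 0.12, 1 was higher and 0 lower at an unadjusted limma p under 0.05 (3.27% of all clusters). This was *Prox1*, a gene of dentate granule cells, at 0.54, with an adjusted limma p of 0.9996. The part of these cells in the values of the 10 genes was not tested.

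The Y-linked signal divided the arrays unevenly, with 2 of 3 WT milk arrays and 1 of 3 KO milk arrays carrying it. Within the 3 arrays with the signal *Ogn* was 1.11 higher on the log2 scale in the KO milk array than in the mean of the WT milk arrays, and within the 3 without it the difference was -1.38. For *Dcn* the difference was -0.64 with the signal and 0.55 without it. Each such difference sets 1 array against 2, so it carries no test.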

How the data were processed

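The deposited log2 intensities, 1 value per transcript cluster and array, were made by the authors in Transcriptome Analysis Console by RMA (background correction, normalization and probe summary). No scanner files were used, and the genome build was not given in sources used here. Input RNA is given differently in the methods and the labels. All 6 sample columns were used and 0 left out. Of 22206 clusters, 19572 carried 1 symbol, 0 several and 2634 none. Where a symbol had several clusters, the brightest was kept.

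Under R 4.3.3, limma 3.58.1 fitted all clusters (lmFit then eBayes, no covariate, threshold 0.05 after Benjamini-Hochberg adjustment), and the fit was tested on simulated data. Differences are KO milk minus WT milk. A summed level is the log2 of the summed intensities of a list, so its brightest genes weigh most. Exact permutation tests ran over arrays. The 10 genes and the lists were chosen with earlier results of these data known. All 10 are named. From each list the 3 genes with the smallest p and any at an unadjusted p under 0.05 could be named, with *Ttr*, *Mbp* and the 8 genes most like the mean profile. *Bgn*, *Ecm2*, *Slc17a7*, *Sostdc1*, *Lmx1a*, *Kl*, *Pdgfrb*, *Vtn*, *Kcnj8* and the Y-linked genes were picked with their values known, outside this rule. So were the other choroid plexus, mural, endothelial and hippocampal neuron markers that the rule does not cover. Of the myelin genes that passed, the others are given as a count. Alternatives were a second quantile normalization, a common median, a filter at a mean log2 intensity of 5, array weights, a trended robust prior, an unmoderated test, the replicate block, a Y-signal covariate and leaving out each array. The number of arrays limits the precision.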

Additional observations from a re-analysis of the deposited data

How the results depend on the processing

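No alternative that kept all 6 arrays called a transcript cluster or put any of the 10 genes at an unadjusted limma p under 0.05. Leaving out 1 array at a time, limma called 0 to 1 clusters, 0 to 2 of the 10 genes had an unadjusted p under 0.05, and the median of the 10 log2 fold changes ran from -0.17 to 0.07. The 1 cluster was called without KO milk replicate 2. The single genes ran from -1.50 to 0.04 for *Ogn*, -0.76 to -0.03 for *Slc13a4*, -0.62 to -0.20 for *Aldh1a2*, -0.09 to 0.23 for *Slc6a13*, -0.24 to 0.35 for *Slc22a6*, -0.61 to 0.16 for *Ptgds*, -0.23 to 0.46 for *Fmod*, -0.10 to 0.40 for *Mgp*, -0.99 to 0.66 for *Dcn* and -0.69 to 0.25 for *Lum*. Array weights, which gave KO milk replicate 3 a weight of 0.384, turned the sign for *Slc6a13* (-0.03), *Slc22a6* (-0.18), *Fmod* (-0.21), *Mgp* (-0.08), *Dcn* (0.62) and *Lum* (0.17). The Y-linked signal as a covariate turned it for *Slc13a4* (0.0034) and *Slc6a13* (-0.03), and without a turn gave -0.07 for *Ogn*, -0.46 for *Ptgds*, 0.18 for *Slc22a6*, 0.20 for *Fmod*, 0.09 for *Mgp*, -0.05 for *Dcn*, -0.17 for *Lum* and -0.41 for *Aldh1a2*. Differences within the arrays with that signal, added after seeing the data, turned for *Ogn* (1.11), *Slc13a4* (0.17), *Slc6a13* (-0.19), *Slc22a6* (-0.17) and *Lum* (0.10), and for *Dcn* (0.55) in those without it. The cause was not tested. The replicate numbers did not pair the arrays: deviations of same-numbered arrays correlated at 0.02, -0.13 and 0.02, and with the replicate block 0 clusters and 0 of the 10 genes were called, *Ogn* being at -0.61 and the median at -0.12. The mean of all clusters changed no value, since each of the 10 genes has 1 cluster. Scanner background and scan batch were not examined.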
